A study of Mus musculus with 12 samples.

Results

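Complement is a cascade of plasma proteins that mark and lyse targets, and the liver makes most of them. The 31 genes described here are the complement components, regulators and receptors with a row in the protein-coding table, out of a fixed set of 32 names. The remaining name, C4a, had no row and was skipped. The value of a gene is the sum of the FPKM (sequenced fragments scaled to 1 kilobase of transcript and 1 M mapped fragments) of its listed transcripts, which were 65 of 29883 transcripts and 31 of 14188 genes in all. Liver RNA of 12 male mice, labelled as strain C57BL/8 and 6 weeks old at the start, was sequenced after ribosomal RNA removal, with 6 PZH mice and 6 control mice. Both groups were injected into the abdomen with CCl4, which injures hepatocytes and leads to fibrosis, until they were killed in the eighth week. The PZH group was also given Pien Tze Huang (PZH), a traditional Chinese medicine, into the stomach every day, and the control group was given water in its place. Mice that received no CCl4 were not analysed here, so each difference is between treated and untreated fibrotic livers.

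Activation starts at C1q with its proteases (the classical pathway), at mannose-binding lectins with theirs (the lectin pathway), or on C3 itself with factor B (the alternative pathway). All routes cleave C3 and then C5, and C5b assembles with C6, C7, C8 and C9 into a pore in the target membrane. Soluble and membrane-bound regulators stop the cascade on host cells, and the small fragments C3a and C5a call in white cells through receptors. In the liver, hepatocytes are known as the main source of the plasma components, whereas C1q, properdin and the fragment receptors are mainly products of macrophages and other white cells.

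Levels spanned a wide range, and since FPKM is per length they can be set side by side. In the control group C3 stood first with a mean of 2484 FPKM, followed by Vtn with 597, Clu with 549, Cfb with 367 and Cfi with 301. At the low end were Cd55 with 11.6, C3ar1 with 8.59, Cd59a with 6.11 and C5ar1 with 5.29. C3 took 32.9% to 41.0% of the summed FPKM of the 31 genes in the control mice and 21.3% to 32.1% in the PZH mice. The sum itself was 5617 to 8213 in the control mice and 5827 to 6375 in the PZH mice, and without C3 it was 3610 to 4843 and 3969 to 4586. The implied depth was 26.8 to 42.8 M fragments per mouse, so that the lowest single value among these genes, 1.44 FPKM of C5ar1 in Control 4, rested on about 130 fragments (129.9).

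PZH mice and control mice were compared with limma on log2(FPKM + 1), with Benjamini-Hochberg adjustment over all 14188 genes and a call at an adjusted p under 0.05. Of the 31 complement genes 13 were higher in PZH mice, 5 were lower and 13 were not called. Over all genes 12.7% were called higher and 32.1% lower, against 41.9% and 16.1% of the complement genes. The median log2 fold change was 0.12 for the complement genes and -0.11 for all genes. The values of the groups did not overlap for 9 complement genes that were higher and for 1 that was lower, where the shares over all genes were 6.46% and 17.9%. No complement gene passed the criteria of a 2-fold change on the log2(FPKM + 1) scale with an unadjusted p under 0.05, which 1.52% of all genes passed upwards and 2.5% downwards. Without the added 1, the mean FPKM of C5ar1 in PZH mice was 0.493 times that in control mice.

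**Figure D1:**
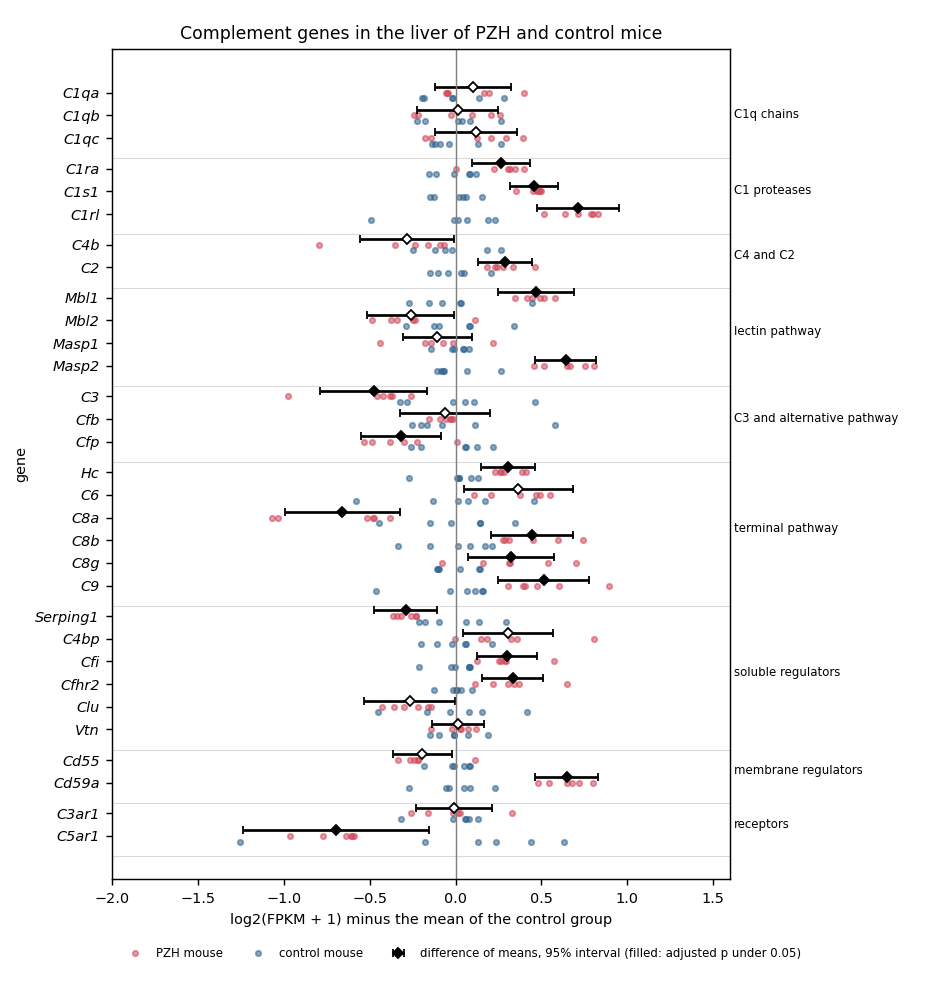
Each row is a complement gene, grouped by role, and the x axis is log2(FPKM + 1) minus the mean of the control group. Small points are the 6 PZH mice and the 6 control mice, diamonds are differences of means with their 95% interval (filled where the adjusted p was under 0.05), and the filled diamonds run from C5ar1 at -0.70 to C1rl at 0.71.

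By the cell that makes them, the calls fell as follows. Among 23 genes of hepatocyte origin 12 were higher, 3 were lower (C3, C8a and Serping1) and 8 were not called, with a median log2 fold change of 0.30. Among 6 genes of macrophage origin none was higher (nor at an unadjusted p under 0.05), 2 were lower (Cfp and C5ar1) and 4 were not called, with a median of 0.0011. The share called lower, 33.3%, was near the 32.1% of all genes, whereas the share called higher among the genes of hepatocyte origin was 52.2% against 12.7%. The sum of 12 hepatocyte markers was 52524 to 68179 FPKM in PZH mice and 33876 to 47938 in control mice, without overlap. Alb made up most of that sum, with means of 38437 FPKM in PZH mice and 24059 in control mice, out of summed means of 58523.5 and 42061. Of the 12 markers 4 (Alb, Ttr and Cps1 among them) were called higher, 1 (Hnf4a) lower and 7 were not called. The sum of 12 macrophage markers was 457 to 710 in PZH mice and 457 to 659 in control mice, with 1 called higher (Csf1r) and 3 lower (Cd14, Cd68 and Fcgr1). The part of cell numbers in these differences was not tested, and in whole liver fewer cells of a type and less RNA per cell cannot be told apart.

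The direction of several genes depends on how the mice are scaled to each other. Under a median-ratio factor per mouse, which brings the median log2 fold change of all genes from -0.11 to -0.0010, 17 complement genes were called higher and none lower, and over all genes 2807 were called higher and 2739 lower in place of 1798 and 4560. An upper-quartile factor per mouse gave 18 higher and 0 lower, and an equal FPKM sum per mouse gave 12 higher and 6 lower. All 13 genes called higher kept that direction under the 3 scalings, and C1ra alone lost its call (equal sum, log2 fold change 0.22, limma adjusted p = 0.0690). The 5 genes called lower stayed below 0 under the 3 scalings, but none kept its call under the median-ratio or the upper-quartile factor. Ratios between genes within a mouse are the same under every scaling. They were taken for 10 pairs chosen by their roles, among genes that were chosen with earlier results of these data known.

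**Figure D2:**
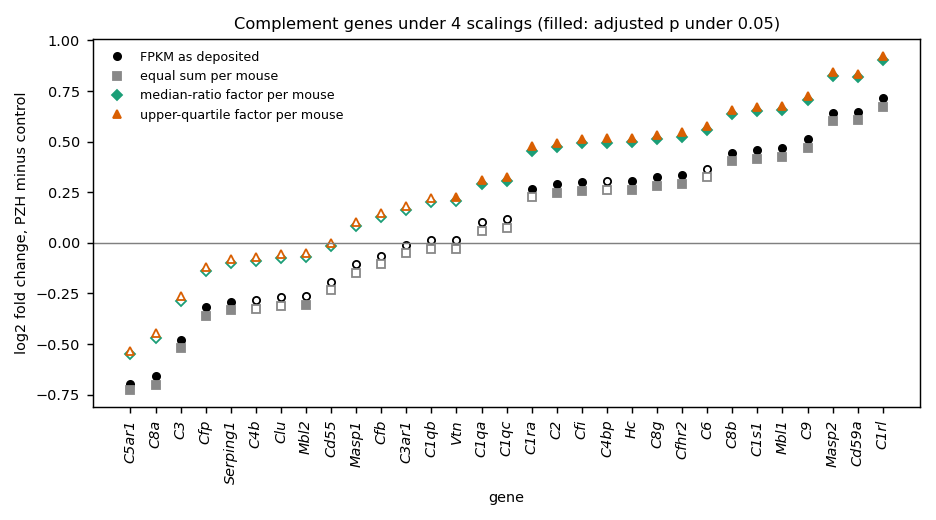
The y axis is the log2 fold change (PZH minus control) of each complement gene on the x axis under FPKM as deposited and 3 other scalings, with filled symbols where the limma adjusted p was under 0.05. The median-ratio and upper-quartile factors move every gene up, so that Masp1, Cfb and C3ar1 cross 0 upwards, Cd55 does so by 0.0013 under the upper-quartile factor, and C1qb and Vtn cross 0 downwards under an equal sum.

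C1q, the recognition unit of the classical pathway, is built from C1qa, C1qb and C1qc chains, whose genes lie next to each other on chr4:136880129-136898803 (GRCm38). C1qa was 43.5 to 61.0 FPKM in control mice (median 49.3) and 48.1 to 66.3 in PZH mice (median 52.3). C1qb was 79.6 to 112 in control mice (median 94.99) and 78.7 to 112 in PZH mice (median 95.6). The ranges of each chain overlapped over most of their length. C1qc was 38.0 to 50.5 in control mice (median 40.0) and 37.0 to 55.3 in PZH mice (median 47.1). The differences were 0.10 for C1qa (95% interval -0.12 to 0.33, adjusted p = 0.455), 0.01 for C1qb (-0.22 to 0.25, adjusted p = 0.938) and 0.12 for C1qc (-0.12 to 0.36, adjusted p = 0.420) in log2 fold change by limma. Under the median-ratio factor C1qa at 0.29 (adjusted p = 0.0309) and C1qc at 0.30 (adjusted p = 0.0481) were called higher by limma. Neither ratio between the chains passed the threshold, with medians of 0.547 in control mice and 0.597 in PZH mice for C1qa to C1qb (log2 difference 0.09, two-sided exact permutation test, adjusted p = 0.416) and of 0.464 and 0.482 for C1qc to C1qb (log2 difference 0.11, exact permutation test, adjusted p = 0.0947). Single mice decide this, since the former was 0.16 without PZH 1 (exact permutation test, adjusted p = 0.0495) and the latter 0.13 without Control 1 or Control 2 (exact permutation test, adjusted p = 0.0495 and 0.0371).

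C1s1, C1ra and the related C1rl were all called higher in PZH mice, and their genes lie together on chr6:124493113-124542359. The related genes C1rb and C1s2, outside the 31, were not called, at log2 fold changes of 0.92 and 0.35 (limma adjusted p = 0.357 and 0.117). C1s1, the protease of C1 that cleaves C4 and C2, was 108 to 134 FPKM in control mice (median 123) and 153 to 169.8 in PZH mice (median 167). The groups did not overlap, and the log2 fold change was 0.46 (SE 0.06, limma adjusted p = 0.000133). C1rl, a protease related to C1r, was 21.2 to 35.7 in control mice (median 31.1) and 43.7 to 54.5 in PZH mice (median 51.6). The log2 fold change was 0.71 (SE 0.11, limma adjusted p = 0.000267), with no overlap. C1ra, which activates C1s, was 46.2 to 56.0 in control mice (median 52.9) and 51.8 to 68.2 in PZH mice (median 64.3), at 0.27 (SE 0.08, limma adjusted p = 0.0144). PZH 1 was the mouse that reached into the control range. Of the 150-base windows of C1ra 26.3% also occur in the near copy C1rb, whose own value ranged from 0 to 13.1 FPKM, and with both genes summed the log2 fold change was 0.32 (limma adjusted p = 0.00956).

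Of the substrates that C1s cleaves, C2 was called higher and C4b was not called. C2, which gives the protease part of the classical C3 convertase, was 22.6 to 29.2 FPKM in control mice (median 25.04) and 28.6 to 35.04 in PZH mice (median 30.2), at 0.29 (SE 0.07, limma adjusted p = 0.00610). Only Control 4 reached the PZH range. C4b, the source of C4, was 297 ± 40.2 FPKM in control mice and 246 ± 41.8 in PZH mice (SD, n = 6 each), at -0.28 (limma adjusted p = 0.0890). Of the windows of C2 48.3% are shared with a readthrough gene over C2 and Cfb, Gm20547, which had no row, and 8.26% of those of C4b with C4a.

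Of 4 lectin pathway genes 2 were called higher and 2 were not called, where 12.7% of all genes were higher and 32.1% lower. Masp2, the protease that cleaves C4 and C2 on lectins, was 17.3 to 22.7 FPKM in control mice (median 17.8) and 26.1 to 33.5 in PZH mice (median 30.1). The groups did not overlap, and the log2 fold change of 0.64 (SE 0.08) had the lowest adjusted p among the 31 genes (limma, 8.35e-05). Masp1, which activates MASP-2, was 58.2 ± 3.18 in control mice and 54.5 ± 8.26 in PZH mice (SD, n = 6 each), at -0.11 (limma adjusted p = 0.388). The ratio of Masp2 to Masp1 was 0.286 to 0.378 in control mice (median 0.305) and 0.401 to 0.627 in PZH mice (median 0.592), again without overlap (log2 difference 0.78, two-sided exact permutation test, p = 0.0022, the smallest that 6 against 6 mice allow, and 0.00541 adjusted over 10 pairs). Mbl1, a mannose-binding lectin, was 34.95 to 58.1 in control mice (median 41.5) and 54.1 to 63.6 in PZH mice (median 59.0), at 0.47 (SE 0.10, limma adjusted p = 0.00267). The overlap came from Control 4 alone. Mbl2, the second mannose-binding lectin and the more abundant, was 194 ± 30.1 in control mice and 161 ± 24.8 in PZH mice (SD, n = 6 each), at -0.26 (limma adjusted p = 0.0843), and it was called lower without PZH 1 (-0.34, limma adjusted p = 0.0186) and without Control 3 (-0.32, limma adjusted p = 0.0393). Mbl2 was at -0.071 under the median-ratio factor (limma adjusted p = 0.692), at -0.050 under the upper-quartile factor (limma adjusted p = 0.781) and, called lower, at -0.30 under an equal sum (limma adjusted p = 0.0367). The ratio of Mbl2 to Mbl1 was 3.51 to 5.67 in control mice and 2.28 to 3.66 in PZH mice (log2 difference -0.74, exact permutation test, adjusted p = 0.00866).

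Masp1 also changed in its mix of transcripts. The gene is known to make MASP-1, MASP-3 and a short form without a protease by alternative splicing, and which listed transcript encodes which protein was not checked. Masp1-201 (ENSMUST00000089883, 16 exons, chr16:23449417-23520815, minus strand) held 62.6% to 68.5% of the FPKM of the gene in control mice and 50.1% to 62.5% in PZH mice. The means were 64.8% ± 2.53 and 55.3% ± 4.14 (SD, n = 6 each), a difference of -9.44 percentage points (two-sided exact permutation test, p = 0.0022, adjusted p = 0.0108 over 5 genes). The ranges came within a narrow gap of each other, since PZH 2 lay next to the control mice. Masp1-203 (ENSMUST00000229619, 11 exons, chr16:23468363-23520650) held 30.4% ± 2.81 in control mice and 40.1% ± 3.96 in PZH mice, and Masp1-204 (ENSMUST00000230040, 9 exons) 4.85% ± 1.36 and 4.52% ± 1.06 (SD, n = 6 each). On the FPKM scale Masp1-201 was 37.7 and 30.3 and Masp1-203 was 17.7 and 21.7 in control and PZH mice, and neither was called by itself (limma adjusted p = 0.0769 and 0.0588 over all transcripts). With Masp1-201 taken for the gene in a fit over 1 leading transcript per gene, Masp1 was called lower, at -0.33 (limma adjusted p = 0.0458). Masp2-201 (ENSMUST00000052060, 11 exons, chr4:148602564-148615499) carried the rise of Masp2 with 17.1 ± 1.73 in control mice and 28.5 ± 2.16 in PZH mice, at 0.71 (SE 0.08, limma adjusted p = 0.000155), while the short Masp2-202 (ENSMUST00000105701, 5 exons) was 1.68 ± 0.720 and 1.34 ± 0.855 (SD, n = 6 each).

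**Figure D3:**
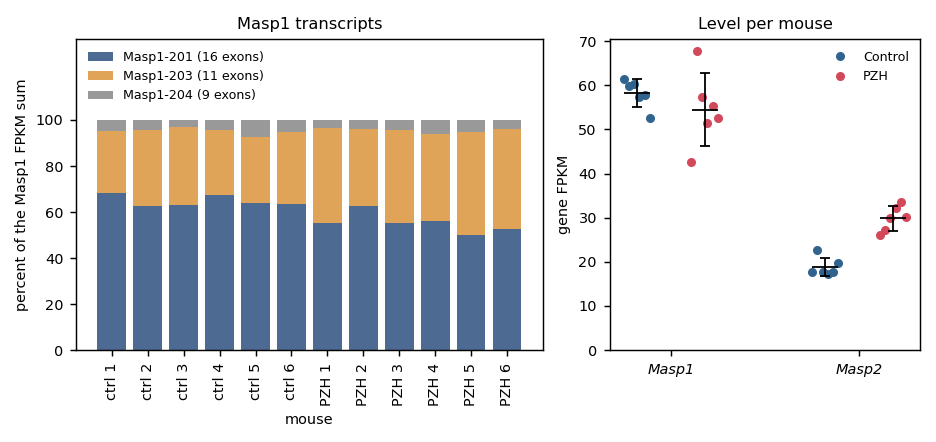
Left, bars stack the percent of the Masp1 FPKM sum held by each of 3 transcripts in each mouse, and right, points are the gene FPKM of Masp1 and Masp2 per mouse with mean and SD. Masp1-201 takes 62.6% or more in each control mouse and 62.5% or less in each PZH mouse, and every PZH mouse exceeds every control mouse in Masp2.

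C3 and the alternative pathway held no gene called higher and 2 of 3 lower, where 12.7% of all genes were higher and 32.1% lower. C3, the protein on which all routes meet, was 1948 to 3369 FPKM in control mice (median 2478) and 1241 to 2039 in PZH mice (median 1849). The groups overlapped through Control 2, Control 6 and PZH 5, and the log2 fold change was -0.48 (SE 0.14, limma adjusted p = 0.0169). It lost its call under the median-ratio factor, at -0.29 (limma adjusted p = 0.105), and under the upper-quartile factor, at -0.26 (limma adjusted p = 0.136). Cfp, properdin, which holds the alternative convertase together, was 12.6 to 18.02 in control mice (median 16.0) and 10.3 to 15.5 in PZH mice (median 11.9), at -0.32 (SE 0.11, limma adjusted p = 0.0284). Its call was lost when PZH 2, PZH 4, PZH 5, Control 1, Control 4, Control 5 or Control 6 was left out (log2 fold change -0.31 to -0.28, limma adjusted p = 0.0528 to 0.0660), and under the median-ratio factor Cfp was at -0.14. Cfb, factor B, the protease of the alternative convertase, was 302 to 537 in control mice and 323 to 355 in PZH mice, at -0.06 (limma adjusted p = 0.702). Control 4 held the top value of both C3 and Cfb, and without it Cfb was at 0.05. Of the windows of Cfb 81.1% are shared with Gm20547.

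Of 6 terminal pathway genes 4 were called higher, C8a was called lower and C6 was not called. The shares over all genes were 12.7% higher and 32.1% lower. Hc, which is C5, was 172 to 228 FPKM in control mice (median 211) and 243 to 276 in PZH mice (median 251). Every PZH mouse exceeded every control mouse, at 0.30 (SE 0.07, limma adjusted p = 0.00425). C9, which forms the wall of the pore, was 138 to 213 in control mice (median 202) and 235 to 355 in PZH mice (median 259), at 0.51 (SE 0.12, limma adjusted p = 0.00449), and its groups were separate too. C6, which binds C5b first, was 47.5 ± 11.05 in control mice and 60.4 ± 7.25 in PZH mice (SD, n = 6 each), at 0.37 (limma adjusted p = 0.0569). Under the median-ratio factor C6 was called higher, at 0.56 (limma adjusted p = 0.00799), as it was without PZH 6 (0.42, limma adjusted p = 0.04504) and without Control 4 (0.46, limma adjusted p = 0.0163).

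C8 joins the pore as alpha, beta and gamma chains, and the genes of the first 2, C8a and C8b, lie side by side and point towards each other on chr4:104766317-104876398. C8b was 47.5 to 69.9 FPKM in control mice (median 62.5) and 73.3 to 102 in PZH mice (median 79.0). No value was shared between the groups, and the log2 fold change was 0.45 (SE 0.11, limma adjusted p = 0.00564). C8a was 147 to 256 in control mice (median 209.6) and 95.3 to 154 in PZH mice (median 142). This was in the opposite direction, at -0.66 (SE 0.15, limma adjusted p = 0.00402), and only PZH 1 exceeded the lowest control mouse, Control 6. C8g, the gamma chain, was 31.6 to 37.8 in control mice (median 33.3) and 32.2 to 56.1 in PZH mice (median 42.6), at 0.32 (SE 0.12, limma adjusted p = 0.0372), with overlap. Its call was lost when PZH 1, PZH 4, PZH 5, PZH 6, Control 1, Control 2, Control 4 or Control 5 was left out (log2 fold change 0.25 to 0.33, limma adjusted p = 0.0559 to 0.0825), and also with a pseudocount of 0.1 (limma adjusted p = 0.0513) and without variance moderation (limma adjusted p = 0.0554).

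The ratio of C8a to C8b showed the largest log2 difference of the 10 pairs. It was 2.66 to 3.66 in control mice (median 3.55) and 1.06 to 1.97 in PZH mice (median 1.63), a log2 difference of -1.12 (two-sided exact permutation test, p = 0.0022, adjusted p = 0.00541). The highest PZH mouse thus stayed below the lowest control mouse, and leaving out any 1 mouse kept the log2 difference between -1.19 and -1.01. Under the median-ratio factor C8a alone was at -0.47 and missed the threshold (limma adjusted p = 0.0529), whereas the ratio does not depend on the factor. The ratio of C8g to C8b had medians of 0.510 and 0.559 in control and PZH mice (exact permutation test, adjusted p = 0.545), and the difference of mean log2 ratios pointed the other way, at -0.12. C5 and C3, which are cleaved in turn, also parted, with a ratio of Hc to C3 of 0.0675 to 0.107 in control mice and 0.122 to 0.219 in PZH mice (log2 difference 0.78, exact permutation test, adjusted p = 0.00541).

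**Figure D4:**
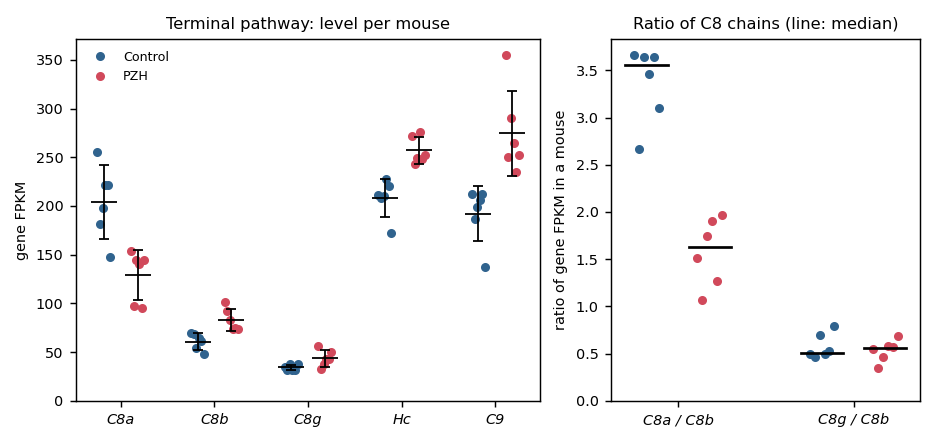
Left, points are the gene FPKM of C8a, C8b, C8g, Hc and C9 in each of 6 control and 6 PZH mice with mean and SD, and right, the ratios of C8a and of C8g to C8b in each mouse with the median as a line. C8a lies lower and C8b, Hc and C9 lie higher in PZH mice, and the C8a to C8b ratio is 2.66 or more in control mice and 1.97 or less in PZH mice.

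The promoters of the genes that moved apart, C8a against C8b and C3 against Hc, and of 2 further genes that share a motif with Hc, are shown as the 250 bases before the RefSeq start, read 5′ to 3′ on the strand of the gene (RefSeq, GRCm38.p6). Capitals mark matches to a motif on either strand, where the motifs searched were C/EBP TTGCNNAA, STAT TTCNNNGAA, NF-kB (GGGA, any 4 bases, CC), HNF1 (GTTAAT, any base, ATT), HNF4 CAAAGTNCA and D-box TTANGTAA. A promoter entry was found for 23 of the 31 genes.
C8a, chr4:104876399-104876648, minus strand: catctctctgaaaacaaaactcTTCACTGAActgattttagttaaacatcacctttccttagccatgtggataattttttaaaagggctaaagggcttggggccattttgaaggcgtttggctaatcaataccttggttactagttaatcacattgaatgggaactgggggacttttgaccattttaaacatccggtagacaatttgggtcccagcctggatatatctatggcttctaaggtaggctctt
C8b, chr4:104766067-104766316, plus strand: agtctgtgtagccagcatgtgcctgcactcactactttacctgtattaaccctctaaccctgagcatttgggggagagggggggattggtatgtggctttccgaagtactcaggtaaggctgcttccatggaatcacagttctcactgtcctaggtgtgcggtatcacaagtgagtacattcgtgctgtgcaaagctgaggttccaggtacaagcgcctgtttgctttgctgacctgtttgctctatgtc
C3, chr17:57228137-57228386, minus strand: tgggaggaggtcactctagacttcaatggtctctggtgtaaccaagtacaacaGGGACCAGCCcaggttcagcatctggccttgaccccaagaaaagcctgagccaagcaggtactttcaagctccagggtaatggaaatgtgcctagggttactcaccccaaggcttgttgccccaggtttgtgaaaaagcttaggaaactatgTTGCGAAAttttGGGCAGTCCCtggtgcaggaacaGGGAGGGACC
Hc, chr2:35061413-35061662, minus strand: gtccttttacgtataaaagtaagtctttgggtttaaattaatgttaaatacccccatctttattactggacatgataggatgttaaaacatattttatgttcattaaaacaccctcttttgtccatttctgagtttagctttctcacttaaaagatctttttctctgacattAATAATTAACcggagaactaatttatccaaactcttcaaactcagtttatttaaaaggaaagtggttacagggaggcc
C4bp, chr1:130661619-130661868, minus strand: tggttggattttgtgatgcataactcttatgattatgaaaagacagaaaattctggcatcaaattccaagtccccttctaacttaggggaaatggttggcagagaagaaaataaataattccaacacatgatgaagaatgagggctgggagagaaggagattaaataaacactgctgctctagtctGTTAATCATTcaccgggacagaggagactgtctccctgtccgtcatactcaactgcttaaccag
Cfhr2, chr1:139858700-139858949, minus strand: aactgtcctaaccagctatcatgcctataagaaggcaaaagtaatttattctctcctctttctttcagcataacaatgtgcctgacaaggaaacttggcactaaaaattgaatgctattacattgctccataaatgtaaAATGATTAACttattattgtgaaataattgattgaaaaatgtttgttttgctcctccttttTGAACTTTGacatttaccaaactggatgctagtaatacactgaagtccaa

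A match is a description of letters and not of a binding site. C8a held a STAT match that starts 228 bases before the start, and C8b held no match to the 6 motifs. C3 held a C/EBP match 45 bases before the start and NF-kB matches 197, 33 and 10 bases before it. Hc, C4bp and Cfhr2 held HNF1 matches 78, 64 and 111 bases before the start, and Cfhr2 held an HNF4 match as well, at 50. HNF1 matches stood in these 3 of 23 genes and in 0.371% of 32851 promoters, and HNF4 matches in 1 of 23 and in 1.19%. For C/EBP the numbers were 4 of 23 (C1rl, C1s1, C9 and C3) and 9.56%, for STAT 2 of 23 (C8a and Masp2) and 7.02%, for NF-kB 5 of 23 (Cd55, C1qb, C1qc, C1s1 and C3) and 17.6%, and for D-box 0 of 23 and 2.06%. These genes were counted by name and the shares taken over promoter entries, and C1s1 and C8g had more than 1 entry. No match in the displayed promoters overlaps another, whereas C1qb held a pair of overlapping NF-kB matches.

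Among the soluble regulators 2 were higher, 1 was lower and 3 were not called, where 12.7% of all genes were higher and 32.1% lower. Cfi, factor I, which degrades C3b and C4b, was 259 to 319 FPKM in control mice (median 309) and 329 to 449 in PZH mice (median 365), at 0.30 (SE 0.08, limma adjusted p = 0.00862). Cfhr2 was 157 to 182 in control mice (median 171) and 184 to 268 in PZH mice (median 214), at 0.33 (SE 0.08, limma adjusted p = 0.00542). Neither gene had an overlap between the groups. Serping1, the C1 inhibitor, which removes active C1r, C1s and MASPs, was 193 to 274 in control mice (median 221) and 173 to 191 in PZH mice (median 183). It was the only gene among the 31 whose PZH mice all lay below the control mice, at -0.29 (SE 0.09, limma adjusted p = 0.0147), yet under the median-ratio factor it was at -0.10 (limma adjusted p = 0.410). The ratio of Cfi to Cfb, factor I over factor B, was 0.559 to 1.06 in control mice (median 0.875) and 1.02 to 1.299 in PZH mice (median 1.04), with a log2 difference of 0.36 (exact permutation test, adjusted p = 0.01804).

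The other soluble regulators did not pass the threshold. C4bp, which binds C4b for its degradation, was 160.2 ± 16.1 FPKM in control mice and 200.5 ± 42.6 in PZH mice, at 0.30 (limma adjusted p = 0.0574), and under the median-ratio factor it was called, at 0.50 (limma adjusted p = 0.0115). Without PZH 2 it was called at 0.37 (limma adjusted p = 0.0251) and without Control 4 at 0.35 (limma adjusted p = 0.0449). Clu, clusterin, which keeps the terminal complex out of membranes, was 549 ± 111 and 449 ± 34.9, at -0.27 (limma adjusted p = 0.0907), and without Control 6 it was called lower, at -0.36 (limma adjusted p = 0.0142). Under the median-ratio and upper-quartile factors Clu was at -0.076 and -0.055 (limma adjusted p = 0.653 and 0.752). Vtn, vitronectin, which also binds the terminal complex, was 597 ± 51.1 and 602 ± 37.0 (SD, n = 6 each throughout), at 0.01 (95% interval -0.14 to 0.16, limma adjusted p = 0.895).

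Of the regulators on the cell surface, Cd59a, which blocks C9 from forming the pore, was 4.85 to 7.31 FPKM in control mice (median 6.11) and 8.87 to 11.3 in PZH mice (median 10.2). The groups were separate, at 0.65 (SE 0.09, limma adjusted p = 9.86e-05). Cd55, decay-accelerating factor, which takes C3 convertases apart, was 11.6 ± 0.844 in control mice and 10.05 ± 1.298 in PZH mice (SD, n = 6 each), at -0.19 (limma adjusted p = 0.0651). The highest PZH mouse, PZH 2, lay above every control mouse, and without it Cd55 was called lower, at -0.26 (limma adjusted p = 0.00614), as it was without Control 3 (-0.23, limma adjusted p = 0.0346).

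The receptors of the fragments differed from each other in the spread of their values. C5ar1, the C5a receptor of neutrophils and macrophages, was 1.44 to 8.02 FPKM in control mice (median 5.62) and 1.98 to 2.87 in PZH mice (median 2.78). All control mice but Control 4 lay above all PZH mice, and the log2 fold change was -0.70 (SE 0.25, limma adjusted p = 0.0385). The call was lost in 10 of 12 fits that left out 1 mouse, all but those without Control 2 and without Control 4, and over the 12 fits the log2 fold change ran from -0.95 to -0.57. It was also lost under the median-ratio factor (-0.55, limma adjusted p = 0.0938) and the upper-quartile factor (-0.53, limma adjusted p = 0.106), with a pseudocount of 0.1 (limma adjusted p = 0.0563), without variance moderation (limma adjusted p = 0.0703) and with the leading transcript alone (limma adjusted p = 0.0564). C3ar1, the C3a receptor, was 8.59 ± 0.9997 in control mice and 8.55 ± 1.38 in PZH mice (SD, n = 6 each), at -0.01 (95% interval -0.23 to 0.21, limma adjusted p = 0.946). The ratio of C3ar1 to C5ar1 had medians of 1.37 and 3.04 in control and PZH mice (exact permutation test, p = 0.0476, adjusted p = 0.0680), and without Control 4 the log2 difference was 1.20 in place of 0.84 (exact permutation test, adjusted p = 0.00722). Neutrophil markers summed to 14.5 to 168 FPKM in PZH mice (median 21.8) and 20.1 to 66.6 in control mice (median 32.9). Of 9 such markers 2 (Cxcr2 and Csf3r) were called lower, 0 higher and 7 were not called, where 32.1% of all genes were called lower. The log2 fold change was above 0 for 5 of the 9. The part of neutrophil markers in C5ar1 was not tested.

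**Figure D5:**
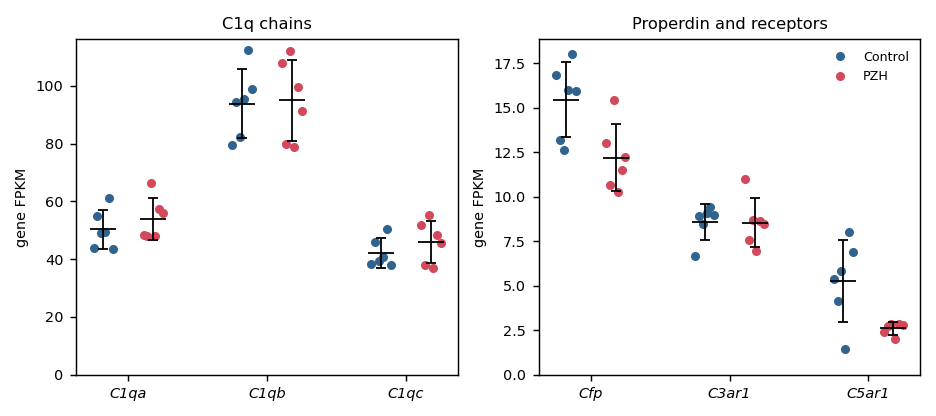
Points are the gene FPKM of the C1q chains (left) and of Cfp, C3ar1 and C5ar1 (right), the genes of macrophage origin, in each of 6 control and 6 PZH mice, with mean and SD. The C1q chains, Cfp and C3ar1 overlap between the groups, and C5ar1 lies at 2.87 or less in each PZH mouse against 4.15 or more in the control mice other than Control 4 at 1.44.

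The ratio of C1ra to C1s1 was 0.408 to 0.454 in control mice and 0.315 to 0.405 in PZH mice (log2 difference -0.19, exact permutation test, adjusted p = 0.00541). With C1rb added to C1ra the log2 difference was -0.13 and the call was lost (exact permutation test, adjusted p = 0.325). The main transcripts of 24 of the 31 genes, C8a, C8b, C3, Hc, Masp1, Masp2 and the C1q chains among them, share no window of 150 bases with another gene.

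At the level of transcripts 14 of the 65 complement transcripts were called higher and 4 lower by limma, where 5.73% and 14% of all transcripts were. The leading transcript held nearly all of some genes, such as C8a-202 with 97.5% of the FPKM of C8a over the 12 mice, C9-201 with 99.2% of C9 and Serping1-201 with 99.5% of Serping1. C1s1 was divided among C1s1-204, which was 66.1 FPKM in control mice and 89.99 in PZH mice, C1s1-203 with 40.5 and 55.5, C1s1-202 with 8.93 and 10.7 and C1s1-205 with 4.72 and 8.89. All but C1s1-202 were called higher by limma, and the share of C1s1-204 was 55.02% and 54.4% (exact permutation test, adjusted p = 0.961). Shares of the leading transcripts of C5ar1, Cd55 and Cfb did not pass the threshold either (exact permutation test, adjusted p = 0.961, 0.961 and 0.709), which leaves Masp1 as the 1 of 5 tested. Cfb-201 was 166 FPKM in control mice and 173 in PZH mice, whereas the second form, Cfb-206, was 139 and 104, and neither was called (limma adjusted p = 0.768 and 0.158). Clu-201 was 499.7 and 407 and Clu-209 was 46.4 and 40.9 in control and PZH mice, and neither was called (limma adjusted p = 0.120 and 0.994). The other forms of Cfb with a mean of at least 1 FPKM were Cfb-207, at 37.9 in control and 36.6 in PZH mice, and Cfb-202, Cfb-204, Cfb-205 and Cfb-208, and none was called. Cd55-204 was 2.59 in control and 2.26 in PZH mice and was not called. The minor forms C2-204, C4bp-202, C4bp-203, C6-201, C8a-201, C8a-203, C9-204, Cfhr2-202 and Serping1-202 lay between 0.796 and 5.82 FPKM in group mean, and none was called.

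The mice did not weigh equally in these results. Control 4 had the highest value of its group for 12 of the 31 genes, C3, Cfb, Mbl1 and Serping1 among them, and Control 6 had the lowest for 13. In the PZH group PZH 1 was highest for 9 genes and lowest for 7, and PZH 2 was lowest for 12. PZH 1 also had the greatest implied depth, 42.8 M fragments, and the greatest FPKM sum over the protein-coding table, 370426 against 325302 to 346874 in the other mice. Without PZH 1 the counts were 12 higher and 5 lower, and without Control 4 they were 14 higher and 4 lower.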

How the data were processed

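The authors deposited FPKM per transcript and mouse, made from strand-specific paired reads with Trimmomatic, HISAT2 on GRCm38, and StringTie with the Ensembl release 95 annotation. Their values are linear and already normalised for length and depth, and hold no counts, so that no counting interval was computed. The depth was inferred from the steps of low values. Transcripts were assigned to genes with GENCODE M21 (29876 of 29883 found), and their FPKM were summed per gene. Members were taken by name, and the genes and lists were chosen with earlier results of these data known. Origin was assigned from general knowledge of the cell that makes each protein.

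Groups were compared on log2(FPKM + 1) with limma 3.58.1 in R 4.3.3 with default moderation, no filter and Benjamini-Hochberg adjustment. Ratios and transcript shares were compared by two-sided exact permutation tests over the 924 labellings of 12 mice, adjusted over 10 pairs and 5 genes. Shares were tested where the second transcript held at least 10% of the gene. The procedure was tested on simulated data. Python 3.11.15, pandas 2.3.3, numpy 2.4.6 and matplotlib 3.10.9 were used for the rest. All 31 genes were named, with the range over mice for those called, for those whose groups did not overlap, and for C3, Hc and the C1q chains. Further complement genes were named where called with a 2-fold change or with a mean of at least 10 FPKM. C1rb, C1s2, Colec10, Cd59b, Itgam and Cd93 were named beyond that rule, and cell type markers and acute-phase genes were named without it. Alternatives tried were 3 scalings, 0.1 as the pseudocount, a filter at a mean of 1 FPKM, no moderation, a mean-variance trend, the mouse number as a block, the leading transcript per gene, and each mouse left out. C1ra summed with C1rb, 1 added in ratios, and mice left out of ratios and shares were added after the data were seen. The lncRNA table, serum, staining and proteomic data were not used here. Some results that the naming rule gave are not reported here.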

Additional observations from a re-analysis of the deposited data

Results flagged for a closer look

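Among 62 groups (31 genes, each in the PZH and in the control group of 6 mice), 8 held a mouse that stood far from the other 5, by Dixon's 95% limit on the gap to its nearest neighbour. Chance flags about 1 in 20 groups. C3 was lowest in PZH 1 at 1241 FPKM, and without that mouse its log2 fold change was -0.38 (limma adjusted p = 0.0271). Control 6 was lowest for Hc at 172 FPKM and for C9 at 138 FPKM, and without it both stayed called higher, at 0.25 and 0.42 (limma adjusted p = 0.00564 and 0.00577). C1rl was lowest in Control 1 at 21.2 FPKM, and without that mouse it was at 0.62 (limma adjusted p = 0.000139). Cd55 was highest in PZH 2 at 12.6 FPKM, and without that mouse it was called lower, at -0.26 (limma adjusted p = 0.00614). The remaining values were those of C1s1 in PZH 2, lowest at 153 FPKM, Cfi in PZH 1, highest at 449 FPKM, and C3ar1 in Control 1, lowest at 6.66 FPKM, and none of these 3 genes changed its side of the threshold without the mouse.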

How the results depend on the processing

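Scaling mattered most. With the median-ratio and the upper-quartile factor, in that order, all genes called higher were 2807 and 2952 and called lower 2739 and 2558, complement genes called lower were 0 and 0, the median log2 fold change was 0.49 and 0.51 for hepatocyte genes and 0.18 and 0.20 for macrophage genes, and Masp1 (0.084 and 0.10), Cfb (0.13 and 0.15) and C3ar1 (0.16 and 0.18) turned positive, as did Cd55 (0.0013) with the latter. With an equal sum C1qb was at -0.030 and Vtn at -0.029, and with the leading transcript Cfb was at 0.13, Masp1 was called (-0.33) and C5ar1 was not. A pseudocount of 0.1 left 9 complement transcripts higher and 2 lower, and the median-ratio factor left 0 lower. The log2 difference of the C1ra to C1s1 ratio was -0.13 with C1rb added. Leaving out mice gave 3 to 6 complement genes lower (3 without PZH 4, PZH 5, Control 1 or Control 5), and log2 fold changes of -0.037 to 0.066 for C1qb, -0.078 to 0.040 for C3ar1, -0.11 to 0.052 for Cfb and -0.017 to 0.051 for Vtn. Group differences in log2 ratio were then 0.033 to 0.16 for C1qa to C1qb, 0.061 to 0.13 for C1qc to C1qb and 0.71 to 1.20 for C3ar1 to C5ar1. Group differences in the share of the leading transcript (PZH minus control) were -1.49 to 1.52 (Cd55), -1.67 to 0.87 (C1s1) and -7.34 to 2.69 (C5ar1) percentage points. None of the genes, ratios and shares given here with mice left out was called with all 12 mice. The causes of these changes were not tested. Same-numbered mice did not deviate together (correlations -0.078 to 0.093), and with the mouse number as a block 14 complement genes were higher, 4 were lower and 2 transcripts were lower, Cfp lost its call (limma adjusted p = 0.0604) and C6 gained one (0.0423). Depth is known only as implied by low values, and FPKM hold no counts.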

Other observations

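Of 24 further complement genes with a row, 4 were called higher by limma, 4 lower and 16 were not called, with a median log2 fold change of -0.02. The shares over all genes were 12.7% higher and 32.1% lower, and 6 of the 24 had a mean under 1 FPKM. Vsig4, a receptor for C3 fragments on Kupffer cells, was 14.2 to 23.3 FPKM in control mice and 26.5 to 38.1 in PZH mice, at 0.57 (SE 0.13, limma adjusted p = 0.00290). Itgb2, the beta chain of complement receptors 3 and 4, was 12.3 to 22.1 in control mice and 8.07 to 14.5 in PZH mice, at -0.55 (SE 0.16, limma adjusted p = 0.0143). Named after their values were seen, Colec10 (0.43) and Cd59b (0.55) were also called higher and Itgam (-0.87) and Cd93 (-0.39) lower. Fcna, Cpn1, Cpn2, Cr1l and C1qbp were not called, at -0.28, -0.02, 0.20, 0.12 and -0.20.

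Vsig4 was 1 of 2 Kupffer cell markers called higher out of 8, with Clec4f, while Marco was called lower, at 9.46 FPKM in PZH mice and 41.9 in control mice. The summed Kupffer cell markers were 159 to 236 FPKM in PZH mice and 145 to 218 in control mice. Of 9 markers of monocyte-derived macrophages 2 were higher (Trem2 and Gpnmb) and 4 lower (Ly6c2, Itgam, Cd9 and Chil3), with sums of 138 to 237 in PZH mice and 182 to 266 in control mice. Spp1, not called and also among the cholangiocyte markers, made up much of that sum. Its means were 94.1 FPKM in PZH mice and 121 in control mice, out of summed means of 196 and 224. Endothelial markers had 2 of 8 lower, stellate cell and fibroblast markers 2 of 9 higher and 2 lower, and cholangiocyte markers 1 of 5 lower, where 12.7% of all genes were called higher and 32.1% lower.

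Of 16 acute-phase genes, which hepatocytes make more of in inflammation, 15 were called lower in PZH mice and none higher, with a median log2 fold change of -1.18. The shares over all genes were 32.1% lower and 12.7% higher. Their summed FPKM was 7458 to 8319 in PZH mice and 12341 to 25231 in control mice, without overlap. Fga, the alpha chain of fibrinogen, was 2925 to 5250 in control mice and 1420 to 1738 in PZH mice, at -1.31 (SE 0.12, limma adjusted p = 1.56e-05). Hp, haptoglobin, was 872 to 4387 and 582 to 1011, at -1.21 (SE 0.32, limma adjusted p = 0.00883). Under the same fit 3 complement genes of hepatocyte origin were called lower, C8a at -0.66, C3 at -0.48 and Serping1 at -0.29. Another 12, Hc, C9 and Mbl1 among them, were called higher. Under the median-ratio factor C8a, C3 and Serping1 lost their calls (limma adjusted p = 0.0529, 0.105 and 0.410). Values of the acute-phase genes under that factor are not given here.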
